A study of Bos taurus with 6 samples.

Results

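Genes of the cell cycle and of DNA replication were followed in whole blood of cattle that carry the fat-1 transgene. The group is a list of 40 genes, from the helicase that opens replication origins to the kinases, motors and chromosome proteins of mitosis. A gene was taken to be on the array where a non-control probe carried its symbol as gene name or in brackets in its description, and each gene is represented by its probe with the highest mean log2 signal over the 6 arrays. By that rule 35 of the 40 genes had a probe, with 79 probes between them, out of 43653 non-control probes with 25325 different gene names on the array. MKI67, CDT1, MCM2, CENPA and GINS2 had none and were not analysed here.

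Jugular vein blood was drawn from 3 fat-1 transgenic and 3 wild type cows, and total RNA of each animal was hybridised to 1 single-colour Agilent array. The fat-1 gene of a nematode encodes a desaturase that converts omega-6 into omega-3 fatty acids. All were female and aged 3 years, except fat-1 replicate 1 at 3.5 years. The labels give neither the promoter of the transgene nor whether the transgenic animals descend from 1 founder. No probe is named for the transgene, and the genotypes were taken from the labels alone.

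A cell that commits to division switches on, in turn, genes that load and fire the MCM helicase at replication origins, genes that copy the DNA and make its building blocks, and genes that condense, attach and separate the chromosomes. The first sets are driven largely by E2F factors, the later set by the MuvB complex with FOXM1, and the products are destroyed again through the anaphase-promoting complex. Mature blood granulocytes and mammalian red cells do not divide, so in blood these transcripts come mostly from activated lymphocytes, plasmablasts and rare immature cells. In whole blood RNA, fewer dividing cells and less RNA per dividing cell cannot be told apart.

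Levels below are log2 signals relative to the 75th percentile of the same array, so a probe at 0 has the signal of that percentile; a difference is the fat-1 mean less the wild type mean, with its standard error (SE). Levels of different genes come from different probes and were not compared. All 3 fat-1 arrays lay on 1 slide and all 3 wild type arrays on another, so slide and genotype cannot be told apart in any difference given here. The 75th percentile signal was 716 to 1067 in fat-1 and 613 to 887 in wild type arrays (exact permutation test, two-sided p = 0.6, the smallest possible being 0.1). Between 58.4% and 63.4% of probes were well above background. Of 10 red cell and reticulocyte markers 10 were measured, of 8 monocyte markers 8, and of 8 neutrophil markers 4. The neutrophil receptors CXCR1 and CXCR2, and ALPL, were well above background on no array, and CSF3R had no probe. The measured S100A8, S100A9 and S100A12 stood at 5.07 to 8.57 (log2) over the 6 arrays, and MMP9 at -2.97 to -0.78.

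Testing a probe required 3 or more of the 6 arrays to show it well above background. The chosen probes of 31 of the 40 genes met this, among 26823 probes in all. The other 4 genes with a probe were dim. CCNE2, the partner of CDK2 at the start of S phase, was well above background on 0 arrays. CDC6, which helps load the helicase, PRIM1, the primase subunit that makes the first RNA primers, and KIF11, the motor that pushes the spindle poles apart, reached that level at their chosen probe only in fat-1 replicate 3.

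No member passed the test for a difference between the genotypes. With limma and Benjamini-Hochberg adjustment over all tested probes, 0 of 31 members had an adjusted p under 0.05, against 0.171% of all tested probes (0.0932% lower), and the smallest adjusted p was 0.245. At an unadjusted p under 0.05 there were 2 of 31 members, both lower in fat-1, STMN1 and MAD2L1, against 12.8% of all tested probes in either direction 6.66% in the lower and 6.17% in the higher direction. The difference was below 0 for 22 of 31 members, with a median of -0.18, and for 55.3% of all tested probes, with a median of -0.06. The groups did not overlap for 5 members, all lower in fat-1 (MCM5, MCM7, TK1, MAD2L1 and STMN1), beside 12.7% of all tested probes that were lower without overlap and 6.95% that were higher. The share of members called at the unadjusted threshold was thus below the background, and their share without overlap, 16.1%, was near the 19.6% of all tested probes in either direction.

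**Figure D1:**
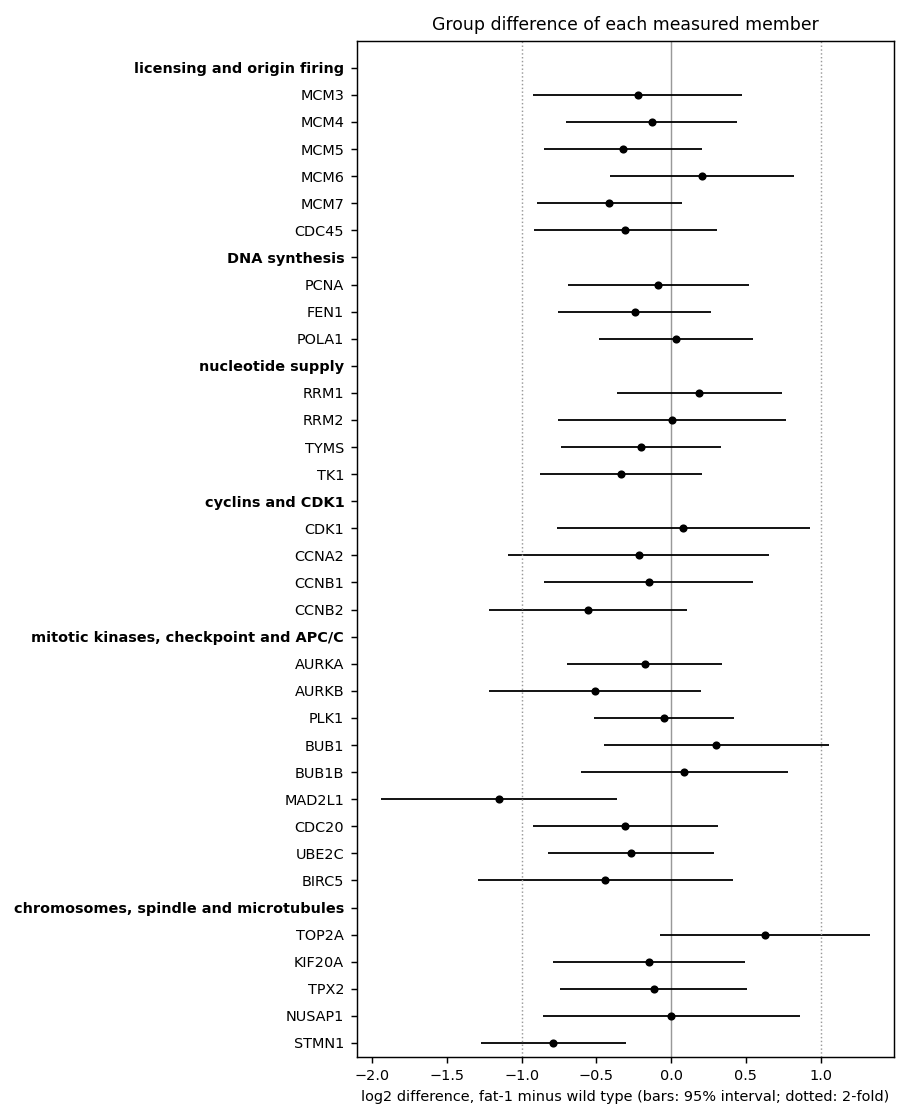
Difference of each of the 31 measured members on the log2 scale, fat-1 minus wild type, by role, with 95% intervals from limma (n = 3 animals a group); dotted lines mark a 2-fold difference. The intervals of 23 members lie inside 2-fold, and only those of MAD2L1 and STMN1 leave out 0.

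The intervals say how large a difference these 6 arrays leave possible. For 23 of 31 members (74.2%) the 95% interval lay inside a 2-fold difference in either direction, as it did for 60.0% of all tested probes. The other 8 were CCNA2, CCNB2, AURKB, BUB1, MAD2L1, BIRC5, TOP2A and STMN1, for which a 2-fold difference in at least 1 direction lay inside the interval. The median SD within a group was 0.343 over the members and 0.311 over all tested probes.

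The 6 measured genes of origin licensing and firing differed by -0.41 to 0.21, 5 of them below 0. MCM7, a subunit of the helicase ring that unwinds DNA at the fork, stood at 3.72, 3.78 and 3.80 in fat-1 replicates 1 to 3 and at 4.07, 4.46 and 4.01 in wild type replicates 1 to 3. Every fat-1 animal was below every wild type animal, and wild type replicate 2 was the highest; the difference was -0.41 ± 0.21 (SE, limma, unadjusted p = 0.086, adjusted p = 0.421). MCM5, another subunit of the ring, stood at 4.27, 3.91 and 4.24 in fat-1 and at 4.30, 4.78 and 4.31 in wild type. Its groups were separated by a narrow gap, with wild type replicate 2 again highest, and the difference of -0.32 ± 0.23 did not pass (limma, unadjusted p = 0.202).

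CDC45, which joins the ring to make the active helicase, stood at 1.15, 0.69 and 0.87 in fat-1 and at 0.73, 1.49 and 1.41 in wild type. Wild type replicate 1 fell among the fat-1 animals, and the difference was -0.31 ± 0.27 (limma, unadjusted p = 0.282). MCM6 had 0.098, -0.62 and -0.0082 in fat-1 and -0.39, -0.67 and -0.091 in wild type. It was low in replicate 2 of both groups, and the groups overlapped, with a difference of 0.21 ± 0.27 (limma, unadjusted p = 0.464).

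MCM4 and MCM3, the remaining subunits with a probe, show how far probes of 1 gene can differ. Of the 5 measured MCM4 probes, 3 overlap at chromosome 14 (Btau_3.1, plus strand, chosen probe at chr14:19222305-19222364), and this is the stretch of 24 bases that all 3 share, in capitals because it is common to them:
MCM4: CTAATGTGTAAAGCTTCTTCCTCA
The 5 MCM4 probes gave differences of -0.13 to -0.46, all below 0, with SE of 0.23 to 0.27 (limma, smallest unadjusted p = 0.074). At the probe with -0.46, which holds the shared stretch, no fat-1 animal reached a wild type animal, whereas at the chosen probe the groups overlapped.

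MCM3 went in opposite directions at different probes. Its chosen probe gave -0.22 ± 0.31 (limma, unadjusted p = 0.483), and levels from -0.11 in fat-1 replicate 1 to 1.01 in fat-1 replicate 3, so fat-1 animals were both the lowest and the highest. Both other measured probes are printed because they target other stretches of the same transcript, on the minus strand of Btau_3.1. The first matches the genome over chr23:25209596-25210520, a span of 925 for 60 bases, and the second at chr23:25212322-25212381:
MCM3 first: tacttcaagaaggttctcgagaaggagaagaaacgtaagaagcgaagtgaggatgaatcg
MCM3 second: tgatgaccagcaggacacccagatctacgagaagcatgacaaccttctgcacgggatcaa
The first gave 0.48 ± 0.31 (limma, unadjusted p = 0.163) and the second -0.16 ± 0.23 (limma, unadjusted p = 0.512). A further probe named MCM3 lies on chromosome 9 and was well above background on 0 arrays.

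The 3 measured DNA synthesis genes stayed within -0.24 and 0.034. FEN1, the nuclease that trims Okazaki fragments, stood at 1.88, 1.57 and 2.17 in fat-1 and at 2.14, 2.13 and 2.09 in wild type. The wild type animals were nearly level, while fat-1 replicate 3 lay above all of them and fat-1 replicate 2 lowest; the difference was -0.24 ± 0.22 (limma, unadjusted p = 0.304). PCNA, the sliding clamp that holds the polymerase on DNA, stood at 2.63, 2.32 and 2.88 in fat-1 and at 2.70, 2.32 and 3.07 in wild type. Each group held 1 animal at 2.32, and the genotypes differed by -0.085 ± 0.26 (limma, unadjusted p = 0.755). POLA1, the catalytic subunit of the polymerase that extends primers, stood at -2.38, -2.80 and -2.29 in fat-1 and at -2.63, -2.59 and -2.36 in wild type. The fat-1 group held both the lowest and the highest animal, with a difference of 0.034 ± 0.22 (limma, unadjusted p = 0.883).

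Among the 4 genes of nucleotide supply, TK1, the S phase thymidine kinase that salvages thymidine, came nearest to a difference. Its levels were 5.19, 5.09 and 5.23 in fat-1 and 5.36, 5.92 and 5.25 in wild type. The highest fat-1 animal lay just under the lowest wild type animal, wild type replicate 2 stood apart above, and the difference was -0.33 ± 0.24 (limma, unadjusted p = 0.195). A second TK1 probe stood at -0.17, -0.61 and -0.21 in fat-1 and at 0.15, 0.56 and 0.26 in wild type. There the groups were further apart, at -0.65 ± 0.23 (limma, unadjusted p = 0.020, adjusted p = 0.344).

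TYMS, which makes thymidylate for DNA, stood at 1.68, 1.41 and 1.93 in fat-1 and at 1.67, 1.84 and 2.12 in wild type, a difference of -0.20 ± 0.23 (limma, unadjusted p = 0.411). RRM1, the large subunit of ribonucleotide reductase, stood at 3.04, 2.91 and 3.29 in fat-1 and at 2.84, 2.60 and 3.23 in wild type, a difference of 0.19 ± 0.24 (limma, unadjusted p = 0.453). RRM2, the small subunit of that enzyme and the one made in S phase, stood at 1.23, 0.21 and 1.22 in fat-1 and at 0.49, 0.93 and 1.22 in wild type. For these 3 genes the groups overlapped; RRM2 was low in fat-1 replicate 2 and wild type replicate 1 alone, and its group difference was 0.0078 ± 0.33 (limma, unadjusted p = 0.982).

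The cyclins differed more between animals of 1 group than between genotypes. CCNB2, a mitotic cyclin, stood at -1.16, -1.71 and -0.88 in fat-1 and at -1.10, -0.47 and -0.50 in wild type. Wild type replicate 1 lay between fat-1 replicates 1 and 3, and the difference was -0.55 ± 0.29 (limma, unadjusted p = 0.090, adjusted p = 0.423). CCNA2, the cyclin of S phase and early mitosis, stood at -1.02, -2.42 and -1.29 in fat-1 and at -1.54, -1.62 and -0.93 in wild type. Its fat-1 replicate 2 was far below the other animals, the remaining fat-1 animals lay inside the wild type range, and the difference was -0.22 ± 0.38 (limma, unadjusted p = 0.585).

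CCNB1, the main partner of CDK1 at entry into mitosis, stood at -1.06, -1.87 and -0.79 in fat-1 and at -1.27, -1.17 and -0.84 in wild type. Again fat-1 replicate 2 was lowest and the others overlapped, with a difference of -0.15 ± 0.31 (limma, unadjusted p = 0.638). CDK1, the kinase that drives mitosis, stood at -2.35, -3.09 and -2.31 in fat-1 and at -2.92, -3.16 and -1.90 in wild type. Wild type animals were both the lowest and the highest for CDK1, and the difference was 0.080 ± 0.37 (limma, unadjusted p = 0.834).

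Of the 9 mitotic kinase, checkpoint and anaphase-promoting complex genes, 7 were below 0, and 1, MAD2L1, had an unadjusted p under 0.05. MAD2L1 encodes the spindle checkpoint protein that holds back anaphase until chromosomes are attached. It has 1 probe, at chr6:5500223-5500282 of Btau_3.1, plus strand, and the first 30 of its 60 bases are shown because which copy of the gene they measure is uncertain:
MAD2L1: gagcctataaagctgtggatattcccactt
The array describes the target as a predicted transcript similar to MAD2L1, and the RefSeq gene table (ARS-UCD2.0) places the gene of that symbol on another chromosome than the probe; for the other 34 chosen probes the chromosomes were the same. MAD2L1 stood at -0.56, -1.13 and -0.078 in fat-1 and at 0.95, -0.0047 and 0.74 in wild type. No fat-1 animal reached a wild type animal, but fat-1 replicate 3 and wild type replicate 2 lay close together. The difference was -1.15 ± 0.35, or 2.22-fold lower (95% interval -1.94 to -0.36; limma, unadjusted p = 0.0097, adjusted p = 0.282).

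AURKB, the kinase that corrects faulty chromosome attachments, stood at -1.08, -1.91 and -0.83 in fat-1 and at -1.05, -0.65 and -0.59 in wild type. Its fat-1 replicate 2 was far below the rest, fat-1 replicate 3 lay above wild type replicate 1, and the difference was -0.51 ± 0.31 (limma, unadjusted p = 0.137). BIRC5, survivin, which anchors AURKB at centromeres, stood at -1.85, -3.06 and -1.72 in fat-1 and at -2.10, -1.75 and -1.46 in wild type. Here fat-1 replicate 2 was lowest by a wide gap and the difference was -0.44 ± 0.37 (limma, unadjusted p = 0.269). CDC20, an activator of the anaphase-promoting complex, stood at -0.32, -0.89 and -0.17 in fat-1 and at -0.46, 0.15 and -0.15 in wild type. Its groups overlapped, with a difference of -0.31 ± 0.27 (limma, unadjusted p = 0.287).

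BUB1B, a partner of MAD2L1 in the checkpoint, had a difference of 0.088 at its chosen probe and of 0.35 at a second probe. Another tested probe is printed because it alone was well above background in all 3 fat-1 and in 0 wild type animals (chr10:35711970-35712026, Btau_3.1, plus strand):
BUB1B: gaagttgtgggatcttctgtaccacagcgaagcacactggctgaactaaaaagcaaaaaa
It was tested only because the fat-1 arrays passed the filter, so its wild type mean of -4.97 is only a bound and no difference is read from it. The fat-1 animals stood at -3.88, -4.62 and -4.56 and wild type replicate 3 at -4.46, so the signals of the groups overlapped.
BUB1, the kinase that places checkpoint proteins at centromeres, had probes of both signs, at 0.30, 0.22 and -0.39. The 8 measured members not described with each animal's value, BUB1 and BUB1B among them, lay between -0.27 and 0.30 at their chosen probes, with unadjusted p of 0.299 to 0.996.

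STMN1 had the smallest p of the members. It encodes stathmin, which destabilises microtubules until it is phosphorylated at mitosis, and is abundant in dividing cells and in immature lymphocytes. Both of its probes lie at the same place (chr2:131445793-131445852 for the chosen one, Btau_3.1, plus strand) and share 52 of 60 bases, so they are close to 1 measurement; the first 30 of the shared bases are, in capitals as common to both:
STMN1: TGTCCCGATCTTACAGACGCTACTGTACTT
STMN1 stood at 4.94, 5.27 and 5.33 in fat-1 and at 5.89, 6.13 and 5.88 in wild type. The groups were clearly apart, with fat-1 replicate 1 lowest and the 3 wild type animals within a narrow range. The difference was -0.79 ± 0.21, or 1.73-fold lower (95% interval -1.28 to -0.30; limma, unadjusted p = 0.0056, adjusted p = 0.245), and the second probe gave -0.81 ± 0.21 (limma, unadjusted p = 0.0041).

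STMN1 did not follow the animal order of most members: fat-1 replicate 2, lowest for 23 of them, was between the other fat-1 animals here. This was not particular to STMN1. MCM7 was likewise lowest in fat-1 replicate 1 and highest in wild type replicate 2, and MCM3 was also lowest in fat-1 replicate 1. Levels of gamma-delta T cell markers, genes of a lymphocyte class abundant in cattle blood, were also lower in fat-1. Of 7 such markers 6 were measured, all below 0, and 5 had an unadjusted p under 0.05, all lower, beside 6.66% of all tested probes. None passed an adjusted p of 0.05, the smallest being 0.145 (limma). SOX13 and TRGC6, among the 5, were well above background in only 2 fat-1 animals. Levels of the 6 measured markers were summed on the linear scale, relative to the 75th percentile. The sum was 17.4, 49.0 and 34.9 in fat-1 and 56.5, 88.5 and 52.8 in wild type. It was lowest in fat-1 replicate 1 and highest in wild type replicate 2, as for STMN1 and MCM7. The brightest markers, CD163L1 and GATA3, weighed most in the sum. GATA3 was the measured marker without such a p, at -0.53 ± 0.31 (limma, unadjusted p = 0.120). Each measured marker was lowest in fat-1 replicate 1, and TRDC had no probe. The summed level of 5 measured B cell markers was 58.3 to 63.5 in fat-1 and 66.0 to 109 in wild type. Of these B cell markers 4 were below 0 and 1 above, and 1 had an unadjusted p under 0.05 (limma), lower. The sums of 8 markers listed for alpha-beta T cells were 83.0, 116 and 111 in fat-1 and 112, 180 and 116 in wild type. They also had fat-1 replicate 1 lowest and wild type replicate 2 highest, and 0 of these markers had an unadjusted p under 0.05. Their brightest, CD3E, belongs to a complex that gamma-delta T cells carry too, so this sum does not separate the T cell classes. The part of these cells in the STMN1 difference was not tested.

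TOP2A, the topoisomerase that untangles sister chromatids, was the member with the highest difference. It has 2 probes on the minus strand of chromosome 19 (Btau_3.1), at chr19:41900605-41900664 for the chosen and chr19:41892322-41892381 for the other, printed because they gave different results:
TOP2A chosen: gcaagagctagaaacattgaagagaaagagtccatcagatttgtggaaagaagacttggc
TOP2A other: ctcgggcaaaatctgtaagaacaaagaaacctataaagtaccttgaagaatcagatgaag
The chosen probe stood at -2.26, -2.90 and -2.89 in fat-1 and at -3.74, -3.42 and -2.77 in wild type. Wild type replicate 3 was above all but 1 of the fat-1 animals, and the difference was 0.63 ± 0.31 (limma, unadjusted p = 0.075, adjusted p = 0.413). Without wild type replicate 3 it was 0.90 (limma, unadjusted p = 0.014, adjusted p = 0.142), and with normexp background correction it was -0.025, so its direction depends on how the background is treated. The other probe, well above background in 2 animals of each group, gave -0.022 ± 0.41 (limma, unadjusted p = 0.959).

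KIF20A, a motor needed for the final split of the cell, stood at -2.59, -3.24 and -2.37 in fat-1 and at -2.68, -2.79 and -2.28 in wild type, a difference of -0.15 ± 0.28 (limma, unadjusted p = 0.609). TPX2, which activates AURKA on the spindle, stood at 0.50, 0.15 and 1.06 in fat-1 and at 0.61, 0.54 and 0.91 in wild type, a difference of -0.12 ± 0.27 (limma, unadjusted p = 0.679). Both were lowest in fat-1 replicate 2 with overlapping groups, and the 3 other TPX2 probes had the opposite sign, at 0.14 to 0.19. Over all members, 34 further probes of 21 genes were measured. Of these, 26 had the sign of the chosen probe and 8 the opposite sign. The 2 with an unadjusted p under 0.05 (limma) were those of TK1 and STMN1. The 26 include the BUB1B probe from which no difference is read, and overlapping probes of MCM4 and STMN1 that are not independent.

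**Figure D2:**
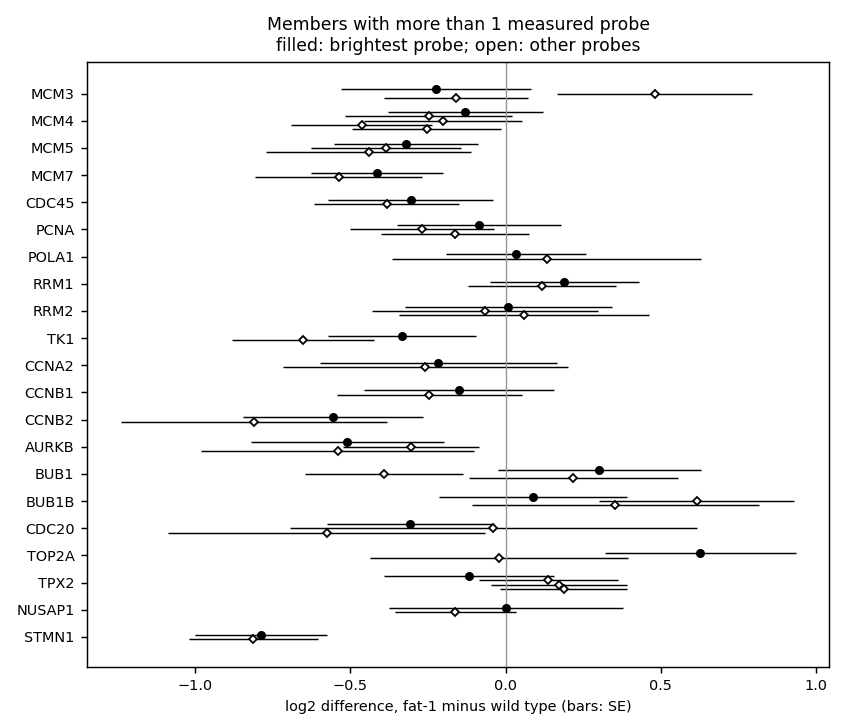
Log2 difference, fat-1 minus wild type, with its SE for each probe of the 21 members with more than 1 measured probe (filled circle, brightest probe; open diamond, other probes); the rightmost BUB1B probe was not well above background in wild type. Probes of STMN1, TK1, MCM4, MCM5 and MCM7 lie on the lower side, while those of MCM3, BUB1, TOP2A and TPX2 fall on both sides of 0.

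The members shared an order of the animals. fat-1 replicate 2 was the lowest of the 6 animals for 23 of 31 members (74.2%) and for 17.9% of all tested probes, and it was the lowest fat-1 animal for 28. Its members lay at a median of -0.39 from the mean of the 6 animals, while its median over all tested probes was -0.02. By contrast, fat-1 replicate 3 was the highest fat-1 animal for 25 members, at a median of 0.19. Wild type replicate 3 was highest of all for 11 members (35.5%) and for 8.10% of all tested probes, at a median of 0.30, and neither of these animals was lowest for any member. Wild type replicate 2 was highest for 10 members (32.3%), near its 37.8% of all tested probes. These are counts over genes measured on the same arrays, which are not independent.

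**Figure D3:**
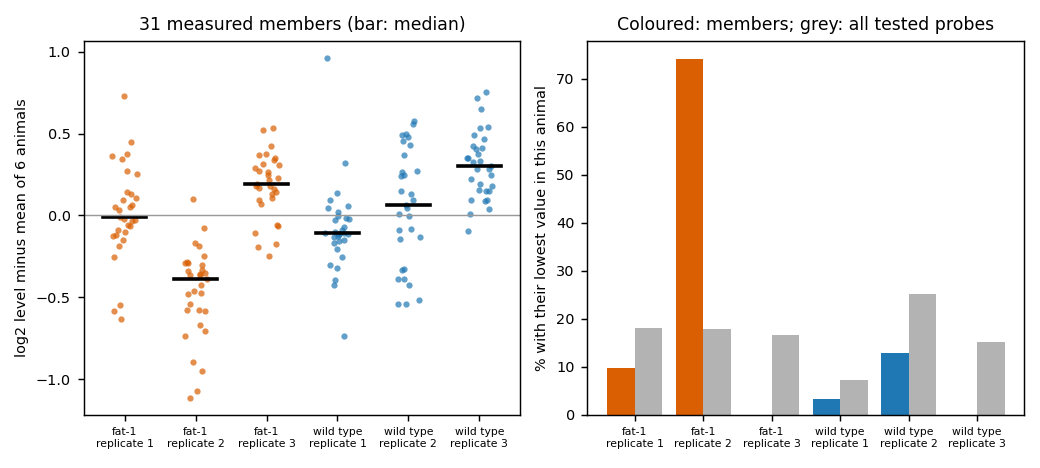
Left, log2 level of each of the 31 measured members minus its mean over the 6 animals, 1 point a gene, with the median as a bar; right, percentage of members (coloured) and of all tested probes (grey) whose lowest value was in each animal. The members of fat-1 replicate 2 sit lowest, at a median of -0.39, and 74.2% of members have their lowest value there.

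The depth of this low animal varied with the role of the genes. In fat-1 replicate 2 the median distance from the mean of the 6 animals was -0.72 over the 4 measured cyclin and CDK1 genes and -0.54 over the 9 mitotic kinase, checkpoint and anaphase-promoting complex genes. It was -0.48 over the 5 chromosome and spindle genes, and -0.35, -0.33 and -0.31 over the licensing, DNA synthesis and nucleotide supply genes. In wild type replicate 3 the cyclin and CDK1 genes were also the most extreme, at 0.50, and the DNA synthesis genes the least, at 0.15. Wild type replicate 2 was high for licensing genes (0.35) and slightly low for the cyclin and CDK1 genes (-0.073).

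**Figure D4:**
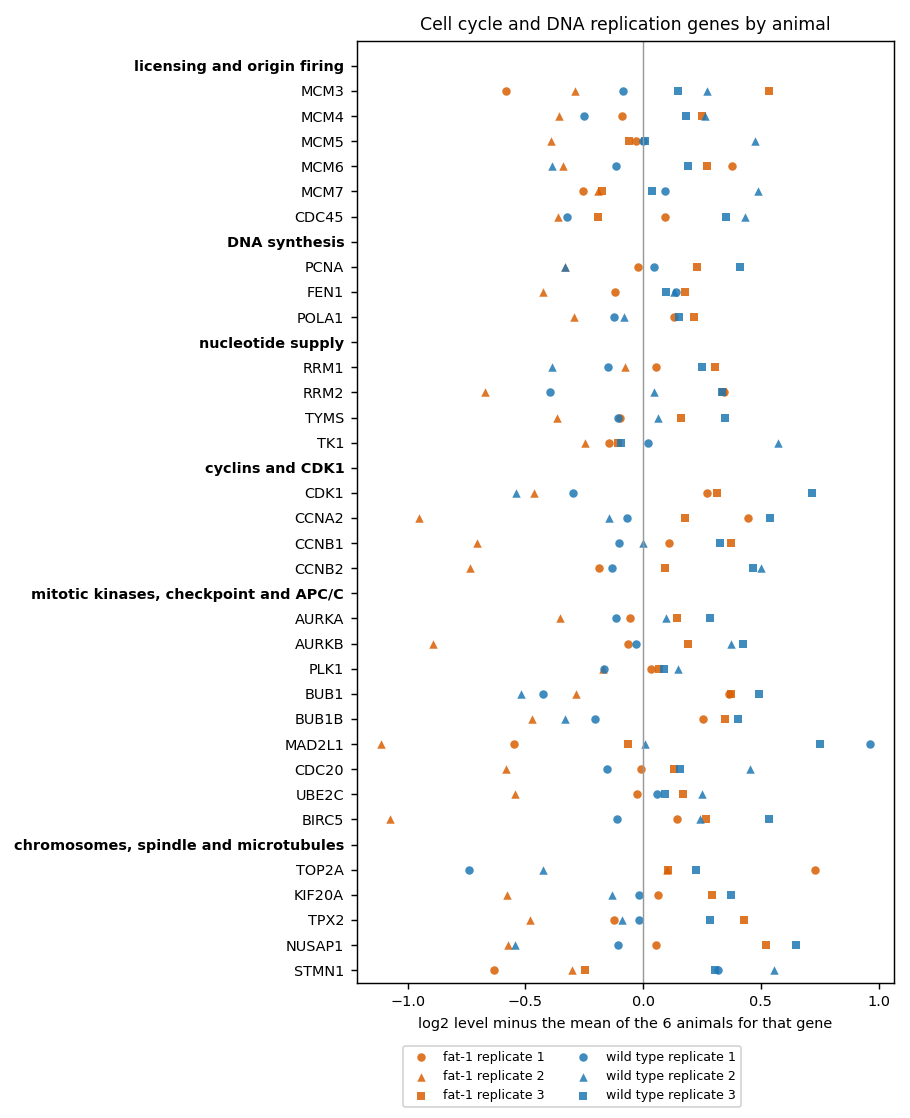
Log2 level of each measured member in each animal minus that gene's mean over the 6 animals, by role (orange, fat-1; blue, wild type; the marker shape gives the replicate number). Orange triangles, fat-1 replicate 2, lie furthest left for most cyclin and mitotic genes; MAD2L1 and STMN1 have all orange points left of all blue points.

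The median difference of the members depended on that animal. Without fat-1 replicate 2 it was 0.016, with 15 of 31 members below 0, and without fat-1 replicate 3 it was -0.33, with 27 below 0. PCNA, CCNA2, CCNB1, KIF20A and TPX2 turned from below to above 0 without fat-1 replicate 2, to 0.061, 0.21, 0.17, 0.10 and 0.093. Leaving out wild type replicate 1 or 3 gave -0.28 and -0.07. STMN1 and MAD2L1 kept an unadjusted p under 0.05 without any 1 of the 6 animals, at -0.67 to -0.86 for STMN1 and -0.88 to -1.43 for MAD2L1 (limma); no member passed an adjusted p of 0.05 in these fits. The array of fat-1 replicate 2 had a 75th percentile signal of 746, against 716 and 1067 in its group. Its mean correlation with the other fat-1 arrays, across probes, was 0.984 against 0.983 for each of the other 2. A correlation over all tested probes cannot show a shift of 31 genes, and a technical part in the low values was not tested. Summed plasmablast markers, from a cell type that divides, were 52.6 in fat-1 replicate 2, the lowest of the 6. They were 54.9 and 71.1 in the other fat-1 animals, against 57.7 to 69.8 in wild type. Taken singly, 1 of the 7 measured plasmablast markers (14.3%) was lowest in fat-1 replicate 2, beside 17.9% of all tested probes. Red cell and reticulocyte markers summed to 1064 there, 557 and 617 in the other fat-1 animals, and 143, 1285 and 178 in wild type. Granulocyte precursor markers were at 0.935, within the 0.638 to 0.943 of fat-1. What part any of these cells had in the low values was not tested.

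A wider list of 117 further cell cycle genes, in 5 groups, gave a similar picture in the tests. Of 98 measured, 0 had an adjusted p under 0.05 (limma), while 4 were higher and 3 lower at an unadjusted p under 0.05, or 7.14% against the 12.8% of all tested probes. The groups did not overlap for 16 of them (16.3%, against 19.6% of all tested probes), 5 higher and 11 lower. fat-1 replicate 2 was the lowest animal for 18 of the 34 other mitosis genes, at a median of -0.51, and wild type replicate 3 the highest for 12, at 0.37. The count at the unadjusted threshold was not stable: without wild type replicate 3 it was 22, of which 16 were higher, beside 23.3% of all tested probes, and without fat-1 replicates 1 or 2 or wild type replicate 2 it was 3 each, and without wild type replicate 1 it was 4. DBF4 and ZWINT kept an unadjusted p under 0.05 without any 1 animal (limma), and POLD1, ATR, ATM and TOPBP1 did not. RAD9A kept it too, but it was tested only through the group where it is higher, so its call is not read as robust.

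None of the 15 measured G1 cyclins, kinases and inhibitors had an unadjusted p under 0.05. The smallest p belonged to CDK4, the kinase that starts the phosphorylation of RB, at -0.52 ± 0.24 (limma, unadjusted p = 0.055), and then to the CDK inhibitor CDKN1A, at -0.37, and the S phase kinase CDK2, at -0.23. None of the 9 measured E2F, MuvB and FOXM1 genes had one either. Their median was -0.40; E2F4, a repressor in resting cells, was at -0.49 ± 0.22, LIN54, the DNA-binding part of MuvB, at 0.78 ± 0.38, and FOXM1, the activator of mitotic genes, at -0.55 ± 0.28. With normexp background correction LIN54 was at 0.11. The groups did not overlap for 3 of the 9 genes, E2F4 and FOXM1 lower and LIN52, another MuvB subunit named after its values were seen, higher by 0.067, beside 12.7% and 6.95% of all tested probes.

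Of 30 other replication genes, DBF4 and POLD1 had an unadjusted p under 0.05. DBF4, the activator of the kinase that fires origins, stood at -2.06, -2.09 and -2.25 in fat-1 and at -2.83, -3.59 and -2.83 in wild type. All fat-1 animals were higher, by 0.95 ± 0.26 (limma, unadjusted p = 0.0062, adjusted p = 0.250), though with normexp background correction the value was 0.37 (limma, unadjusted p = 0.170). POLD1, the catalytic subunit of the lagging strand polymerase, had a difference of -0.62 ± 0.25 without overlap (limma, unadjusted p = 0.039, adjusted p = 0.379). ORC3, of the origin recognition complex, was at 0.51 ± 0.24 (limma, unadjusted p = 0.067).

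Of 34 other mitosis genes 1 had an unadjusted p under 0.05, ZWINT, which links the checkpoint to the kinetochore. ZWINT stood at -1.56, -2.02 and -1.28 in fat-1 and at -0.27, -0.40 and -0.32 in wild type. The wild type animals were nearly level and all above the fat-1 animals, and the difference was -1.29 ± 0.24 (limma, unadjusted p = 0.00060, adjusted p = 0.107). ESPL1, the separase that cuts cohesin, was at -0.58 ± 0.25 (limma, unadjusted p = 0.0501), and HMMR, a spindle protein, at 0.86 ± 0.38 (limma, unadjusted p = 0.054).

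The 10 measured DNA damage checkpoint and repair genes held 4 with an unadjusted p under 0.05, 3 higher and 1 lower, beside 6.17% and 6.66% of all tested probes. RAD9A, of the clamp that is loaded at damaged DNA, stood at -5.03, -5.08 and -4.86 in fat-1 and at -3.67, -3.03 and -3.87 in wild type. It was well above background in 1 fat-1 and 3 wild type animals, and so was tested only through the group where it is higher; its measured means were -4.99 in fat-1 and -3.52 in wild type (limma, adjusted p = 0.0905). Each fat-1 value below the lowest signal called well above background on its array was raised to that signal. The wild type mean was then 2.36-fold higher, which is a lower limit only, and no call is read from the p. ATR, the kinase that responds to stalled forks, stood at -0.67, -0.073 and -0.83 in fat-1 and at -1.62, -2.48 and -0.72 in wild type. Wild type replicate 3 lay among the fat-1 animals, and the difference was 1.08 ± 0.43 (limma, unadjusted p = 0.034, adjusted p = 0.371). Without wild type replicate 2 the ATR difference was 0.65 (limma, unadjusted p = 0.111), and without wild type replicate 3 it was 1.53 (limma, unadjusted p = 0.0030). ATM, the kinase for double-strand breaks, was at 0.74 ± 0.30 (limma, unadjusted p = 0.038), and TOPBP1, an activator of ATR named here after its values were seen, at 0.58 ± 0.25 (limma, unadjusted p = 0.048). With normexp background correction both lost that call, ATM at 0.26 (limma, unadjusted p = 0.326) and TOPBP1 at 0.45 (limma, unadjusted p = 0.079).

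**Figure D5:**
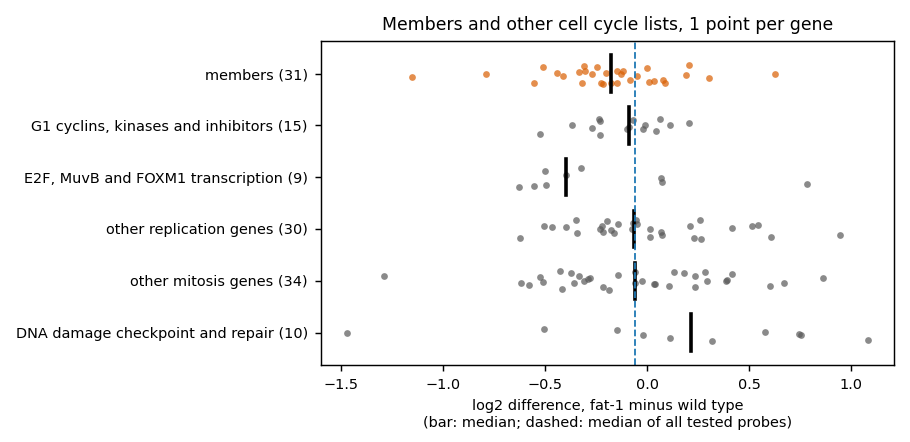
Log2 difference, fat-1 minus wild type, of each measured gene among the 31 members and in the 5 other cell cycle lists, 1 point a gene, with the median as a bar and the median of all tested probes, -0.06, as a dashed line. The median of the members is -0.18 and that of the E2F, MuvB and FOXM1 genes -0.40; MAD2L1 is the lowest member and TOP2A the highest.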

How the data were processed

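The submitters' processing notes name Agilent Feature Extraction, version 10.7.1.1, for reading the arrays. The scanner files the authors deposited hold intensity values per spot, already background-corrected in the processed signal used here. The deposited value table, on a log2 scale set by the authors, was an alternative; each of its columns correlated best with its own array (r of at least 0.999). Other flags, such as well above background, were taken from the deposited files per the file headers.

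Spots of a probe were averaged, leaving out population outliers, and 32 probes with non-uniformity outliers were dropped. Log2 signals were scaled to each array's 75th percentile. limma 3.58.1 in R 4.3.3 (lmFit, eBayes, group only; checked on simulated data) tested 26823 probes with Benjamini-Hochberg adjustment. Each array is a separate animal, per the series' design text. The number of arrays, 3 per group, limits the precision.

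Members and lists were chosen with earlier results of these data known. In each of 6 roles, up to 4 measured members with the smallest p, and PCNA and TOP2A, were described by animal. By the same order of p, the other cell cycle lists named up to 3 genes. Probe positions are those of the array files (Btau_3.1). Promoter motifs were not analysed here. Replicate numbers were not taken to pair the animals. Correlations of same-numbered deviations were 0.117, 0.185 and 0.0058, which are too few to settle whether they were paired. Alternatives comprised normexp, quantile and median scaling, the value table, probe filters, an intensity trend, array weights, probe means, the replicate block and leaving out each animal.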

Additional observations from a re-analysis of the deposited data

How the results depend on the processing

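STMN1 and MAD2L1 were lower with an unadjusted p under 0.05 in every alternative run; with array weights they passed the adjusted threshold (MAD2L1 -1.51, adjusted p = 0.031; STMN1 -0.72, adjusted p = 0.048; limma), 2 members against 0. The members' median difference moved by less than 0.255, the SD between animals of 1 group in the members' median level, but changed sign without fat-1 replicate 2 (0.016). The 46 probes called over the whole array became 116 with normexp, 16 with quantile scaling, 125 with median scaling, 16 in the authors' value table, 14 without a filter on dim probes, 121 with an intensity trend, 1055 with array weights, and 8 to 55 without 1 animal. Members without overlap, 5, became 3 with quantile scaling, 2 with median scaling, 3 in the value table, and 5 to 11 without 1 animal. Other cell cycle genes at an unadjusted p under 0.05, 7, became 11 where all 6 arrays had to be well above background, 13 with an intensity trend, 22 with array weights, 11 with the mean of a gene's probes, and 3 to 22 without 1 animal. With array weights ZWINT (adjusted p = 0.016) also passed, as did RAD9A (adjusted p = 0.012), which was tested only through its higher group.

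Of 39 named genes 29 kept their direction in all settings and 10 did not. None of the 39 had passed an adjusted p of 0.05 in the main fit. With normexp the sign turned for POLA1 (-0.18), CDK1 (-0.20) and TOP2A (-0.025). Quantile scaling turned PCNA (0.026) and POLA1 (-0.032), median scaling POLA1 (-0.013) and RRM2 (-0.039), and the value table PCNA (0.026) and POLA1 (-0.033). Array weights turned CDC45 (0.053), and the mean over probes RRM2 (-3.3e-05) and TPX2 (0.095). Leaving out 1 animal gave a range across 0 for PCNA (-0.27 to 0.099), POLA1 (-0.064 to 0.19), RRM2 (-0.19 to 0.35), CCNA2 (-0.49 to 0.21), CCNB1 (-0.37 to 0.17), CDK1 (-0.17 to 0.46), KIF20A (-0.33 to 0.10) and TPX2 (-0.36 to 0.093).

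The replicate number was not taken to pair the animals in the main fit. With it as a block, 104 probes, 2 members and 8 other cell cycle genes were called at the thresholds above. fat-1 replicates 1 and 2 correlated best with the wild type animal of their own number, fat-1 replicate 3 did not. The slide as a block was not run, since each slide held 1 genotype. The 4 dim members have no difference here, and intervals that reach past a 2-fold difference limit 8 others.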
